A study of Mus musculus with 6 samples.

Results

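The genes of 7 proteins that bind AU-rich messenger RNA were followed in mouse fibroblasts exposed to TNF-α together with actinomycin D: Zfp36, Zfp36l1, Zfp36l2, Elavl1, Khsrp, Tia1 and Tial1. They were chosen by gene name, and each matched 1 of the 54532 rows of the deposited gene count table, so all 7 members are described. The cells were L929, a mouse fibroblast line. The 3 control libraries came from L929 cells of genotype WT labelled Control, and the 3 treated libraries from L929 cells of the same genotype after 12 hours with 10 ng/ml TNF-α plus 1 µg/ml actinomycin D. The treatment text is attached to the controls as well, so the groups rest on the titles and the treatment label. TNF-α is a cytokine of inflammation, and actinomycin D is an inhibitor of transcription that intercalates into DNA. No group received either agent alone, so no difference can be assigned to 1 of them. The labels do not say whether each library had its own culture. The p-values therefore measure only how far these libraries spread, which may be technical.

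AU-rich elements are stretches of A and U, often with repeats of AUUUA, in the 3′ untranslated region of short-lived mRNAs such as those of cytokines and early-response transcription factors. Proteins of the ZFP36 type (tristetraprolin, encoded by Zfp36, with its relatives from Zfp36l1 and Zfp36l2) bind these elements through a pair of CCCH zinc fingers and recruit the CCR4-NOT deadenylase, which shortens the poly(A) tail and starts decay. KHSRP also promotes decay, HuR (from Elavl1) mostly protects bound mRNAs, and TIA1 and TIAL1 repress translation and collect mRNA in stress granules. Several genes of this group carry AU-rich elements in their own mRNA.

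The preferred target of the ZFP36 type is the nonamer TTATTTATT (as DNA). Over the GENCODE M21 transcript with the longest annotated 3′ untranslated region of each gene, all 3 ZFP36-type genes held exactly 1 nonamer, Elavl1 held 8, and Khsrp, Tia1 and Tial1 held 0. Among 11393 tested protein-coding genes with such a region, 8.16% held at least 1. The sites are shown because ZFP36-type proteins prefer this sequence. They are matches of letters, and binding was not tested. Capitals mark bases inside a nonamer, and each line gives 25 bases of the mRNA strand, 5′ to 3′. Build GRCm38 places the nonamers of the ZFP36-type genes at chr7:28376961-28376969, chr12:80108177-80108185 and chr17:84184924-84184932, all on the minus strand, and the nonamer at the centre of the Elavl1 line at chr8:4285790-4285798, also on the minus strand. For the known AU-rich mRNAs shown beside them, the central nonamers lie at chr17:35199688-35199696 (Tnf), chr5:90892625-90892633 (Cxcl1), chr5:90905346-90905354 (Cxcl2), chr12:85477113-85477121 (Fos) and chr2:26459172-26459180 (Notch1).
Zfp36: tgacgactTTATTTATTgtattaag
Zfp36l1: ctgttggaTTATTTATTttagaaat
Zfp36l2: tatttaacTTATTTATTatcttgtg
Elavl1: TTATTTATTTATTTATTTATTtTTA
Tnf: TTTATTATTTATTTATTATTTATTT
Cxcl1: ttatgtatTTATTTATTccacaaag
Cxcl2: ctatgtatTTATTTATTTATTaatt
Fos: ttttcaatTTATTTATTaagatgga
Notch1: aatgctgtTTATTTATTgattgctt
The ZFP36-type genes carry a single isolated copy, whereas the windows of Elavl1, Tnf and Cxcl2 hold overlapping copies. The 8 copies of Elavl1 lie close together near the end of a 4218-base region.

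Library totals ran from 16056207 to 18036322 counts. Levels are given as CPM (counts scaled to a common library total, here with TMM factors), a scale that assumes that most genes do not change. This assumption matters here: the median log2 change of all 13290 tested genes shifted by −1.04 when only library size was used and by −2.27 when cytosolic ribosomal protein genes were held equal. For cell type markers only, CPM were taken by library total, without TMM factors. The 12 fibroblast markers, of which Fap was at 0 in every library, summed to 9655 to 10979 CPM in controls and 13055 to 16767 CPM in treated libraries. The 8 macrophage markers summed to 11.1 to 12.9 and 41.5 to 45.0 CPM, with Itgam at 0. Lymphocyte markers (Ms4a1 and Cd8a at 0) summed to at most 3.22 CPM, epithelial markers (Epcam and Krt5 at 0) to at most 8.19 CPM and endothelial markers (Kdr and Emcn at 0) to at most 0.776 CPM. The part of those markers in the results below was not tested.

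Of the 7 members, 2 rose, 3 fell and 2 did not pass, with a threshold of 0.05 on p-values of the edgeR quasi-likelihood test adjusted by Benjamini-Hochberg over all tested genes. In the same test 74.8% of all genes were called, 34.6% higher and 40.2% lower, so the number of members called is near the background. With the trend of change with gene length removed, all 7 members were called, 5 higher and 2 lower, against 71.5% of all genes. Treated and control libraries did not overlap for 5 members, against 77.9% of all genes. What set the members apart from each other was direction and size: Zfp36 rose about 10.8-fold, while its relative Zfp36l2 fell about 5.01-fold. A lower level in such bulk RNA can mean fewer cells with the transcript or less of it per cell, which cannot be told apart.

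Zfp36 encodes tristetraprolin, the founding protein of the family and the product of an early-response gene. The gene lies at chr7:28376784-28380253 on the minus strand. Its counts were 254, 168 and 198 in control replicates 1 to 3 and 876, 1004 and 1392 in treated replicates 1 to 3. On the TMM scale these were 10.5, 6.87 and 7.82 CPM against 77.4, 88.8 and 106 CPM. Every treated library was far above every control library. The log2 fold change was 3.43 ± 0.22 (SE, n = 3 libraries per group; adjusted p = 5.0e-07, edgeR), an average 8.40 ± 1.89 (SD) against 90.8 ± 14.6 CPM. Zfp36 ranked 151 from the highest change among the 13290 genes and lay between percentile 98.6 and 98.9 of them under the 6 scalings tried. A scaling factor moves all genes of a library alike, so this percentile could hardly change between scalings. With the gene length trend removed the percentile was 99.3. Zfp36 was called higher in all 21 alternatives, with a log2 change of at least 1.21 (ribosomal protein genes held equal).

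Zfp36l1, at chr12:80107754-80113013 on the minus strand, encodes the relative also called BRF1, which acts on the same elements. It had 134, 163 and 159 counts in controls and 160, 146 and 245 in treated libraries, or 5.55, 6.66 and 6.28 against 14.1, 12.9 and 18.7 CPM. The raw counts overlap and the TMM-scaled values do not, so the rise depends on the scale. Its log2 fold change was 1.31 ± 0.23 (SE; adjusted p = 0.00038, edgeR). It was not called by library size (0.28) or with the 13 mitochondrial mRNAs held equal (0.71), and the gene was called lower with ribosomal protein genes held equal (−0.94). Against the median of all genes it lay about 1.48 or more higher on the log2 scale under each of the 6 scalings, a distance that 1 factor per library can hardly move. With the gene length trend removed the distance was 1.16.

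Zfp36l2, at chr17:84183931-84187947 on the minus strand, encodes a further relative with the same kind of zinc fingers. It was the dominant ZFP36-type mRNA of untreated cells, with 4913, 3961 and 4298 counts in controls, and had 343, 293 and 660 in treated libraries. These correspond to 203, 162 and 170 CPM against 30.3, 25.9 and 50.4 CPM. The highest treated library, replicate 3, was still below the lowest control. The log2 fold change was −2.33 ± 0.24 (SE; adjusted p = 9.0e-06, edgeR). It was called lower in all 21 alternatives, between −4.52 and −2.15. Zfp36l3, the remaining gene of the family, had 0.457 CPM on average in controls and 0.588 in treated libraries (adjusted p = 0.68, edgeR) and is not a member.

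Because 2 genes are measured in the same library, their ratio does not move with any scaling factor, though it can move with a correction for gene length. Zfp36 and Zfp36l2 exchanged places by that measure. Per base of deposited gene length, the ratio of Zfp36 to Zfp36l2 was 0.0526, 0.0431 and 0.0469 in controls and 2.60, 3.49 and 2.15 in treated libraries, a 56.7-fold shift in the ratio. The ratio of Zfp36l1 to Zfp36l2 went from 0.0322, 0.0486 and 0.0437 to 0.551, 0.588 and 0.438, a 12.8-fold shift. Zfp36 also gained on Zfp36l1, from ratios of 1.63, 0.888 and 1.07 to 4.72, 5.93 and 4.90. None of these groups of ratios overlapped. Exact permutation tests (two-sided) gave p = 0.1 for each of these ratios, the smallest that 3 against 3 libraries allow, and 0.12 after Benjamini-Hochberg adjustment over the 6 ratios compared.

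**Figure D1:**
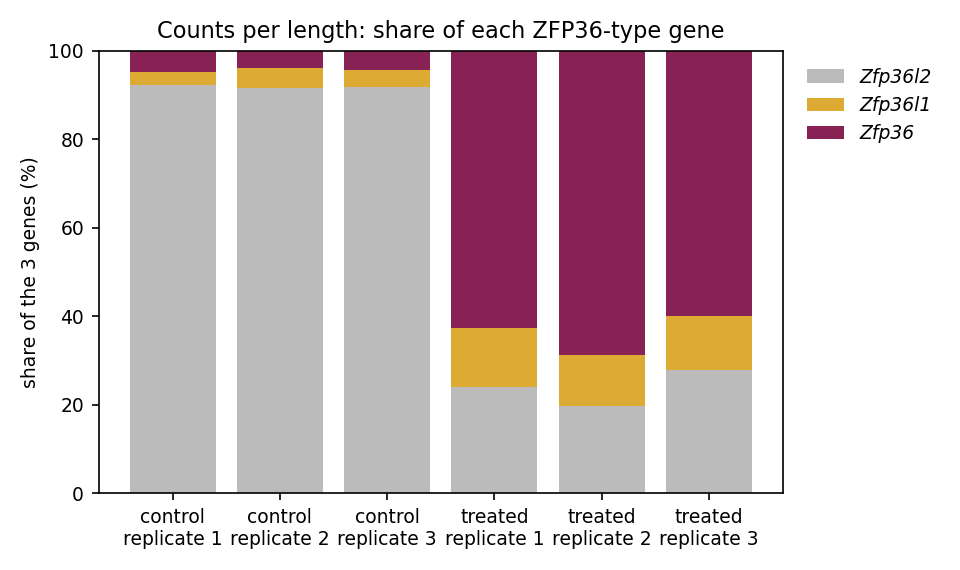
Stacked bars give each ZFP36-type gene's share (%) of their summed counts per length in each of the 6 libraries. Zfp36l2 holds 91.6% to 92.2% in the control libraries and 19.7% to 27.9% in the treated ones, where Zfp36 holds 59.9% to 68.7%.

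Read as shares of the 3 ZFP36-type mRNAs, Zfp36l2 made up 91.8% ± 0.31 (SD, n = 3) in controls and 23.9% ± 4.1 after treatment. Zfp36 went from 4.37% ± 0.45 to 63.7% ± 4.5, and Zfp36l1 from 3.81% ± 0.76 to 12.4% ± 0.85. The exact permutation p was 0.1 for each share, and the 3 shares are not independent of each other. The sum of the 3 genes on the authors' FPKM scale was 60.2, 48.5 and 50.5 in controls and 37.4, 38.3 and 49.8 in treated libraries. Treated replicate 3 reached into the control range on that scale. On the TMM scale the summed CPM of the 3 genes did not overlap, at 219, 175.5 and 184 in controls and 122, 128 and 175.4 in treated libraries, and by library size alone the sums were further apart, at 294, 267.3 and 266.8 against 77.9, 84.0 and 140 CPM. The total of the family thus depends on the scale. The deposited length of Zfp36, 3470 bases, is the whole span of the gene and includes its intron, which lowers its value per length. Without division by length the shares of Zfp36 were 4.32% ± 0.44 and 64.6% ± 4.6.

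The rise of Zfp36 is the largest of the members, so its promoter is shown: the 250 bases before the start site in RefSeq, build GRCm38.p6, chr7:28379229-28379478, minus strand, 5′ to 3′. This window lies inside the deposited span of the gene, chr7:28376784-28380253, which begins further upstream than the RefSeq start. Capitals mark the only match to the consensus of the serum response element, the site through which serum response factor drives early-response genes such as Fos and Egr1.
Zfp36 promoter: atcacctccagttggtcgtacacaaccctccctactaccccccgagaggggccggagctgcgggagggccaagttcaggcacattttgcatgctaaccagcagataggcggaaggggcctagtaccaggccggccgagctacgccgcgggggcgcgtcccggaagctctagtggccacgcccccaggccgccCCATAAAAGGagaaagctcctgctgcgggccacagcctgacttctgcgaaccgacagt
The match lies 49 to 58 bases before the start. Over 27025 RefSeq promoters of 300 bases, 1.57% held such a match on either strand, and among the 6 members with an entry only Zfp36 did. Zfp36 had 3 matches, of which 2 overlap on opposite strands, to a loose form of the NF-κB site (GGG and, 5 bases on, CC) that 50.4% of promoters hold. It had 0 matches to TGANTCA (7.93% of promoters), TGACGTCA (1.88%), GCGTGGGCG (0.625%) and TATAAA (14.2%). In the Zfp36l1 promoter TGANTCA matched at 1 position and TATAAA at 1. A match describes letters in this window and was not tested for binding.

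Elavl1 encodes HuR, which binds the same class of elements and mostly stabilises the mRNA. The gene spans chr8:4285382-4325413 on the minus strand. It had 73.9, 64.3 and 66.7 CPM in controls and 50.8, 59.6 and 48.7 CPM in treated libraries. The groups did not overlap, but they lay close together. The log2 fold change was −0.37 ± 0.15 (SE), with an adjusted p of 0.0498 by edgeR, barely past the threshold. Among 21 alternatives it was called lower in 8, higher in 2 and not called in 11. Once the trend of change with gene length was removed, it was called higher (0.80, adjusted p = 0.0037). The fall of Elavl1 is therefore not a firm call.

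The ratio of Zfp36 to Elavl1, a destabiliser to a stabiliser of AU-rich mRNA, went from 0.425, 0.319 and 0.350 per length in controls to 4.55, 4.45 and 6.52 in treated libraries. That is a 14.1-fold shift with no overlap (exact permutation p = 0.1, adjusted p = 0.12). With the gene length trend removed from both genes the shift was 6.90-fold.

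Khsrp, a KH-domain protein that recruits decay enzymes to AU-rich mRNA and takes part in microRNA maturation, fell. The gene lies at chr17:57021051-57031522 on the minus strand. It had 253, 205 and 215 CPM in controls and 57.8, 73.7 and 80.2 CPM in treated libraries, well apart. The log2 fold change was −1.67 ± 0.17 (SE; adjusted p = 6.4e-06, edgeR), about 3.17-fold lower. It was called lower in all 21 alternatives, from −3.91 to −1.26. Khsrp lost ground against Elavl1: the ratio of Elavl1 to Khsrp rose from 0.122, 0.131 and 0.129 to 0.366, 0.337 and 0.253 per length, a 2.47-fold shift without overlap (exact permutation p = 0.1, adjusted p = 0.12). It was 4.19-fold with the gene length trend removed.

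Tia1 and Tial1, which encode the paired translational repressors of stress granules, were not called. Tia1, at chr6:86404219-86433405 on the plus strand, had 15.3, 24.3 and 20.7 CPM in controls and 11.7, 14.1 and 21.1 CPM in treated libraries. Treated replicate 3 lay inside the control range. Its log2 difference was −0.36 ± 0.26 (SE; adjusted p = 0.23, edgeR), with a 95% interval of −0.94 to 0.21. Without treated replicate 3 it was called lower (−0.70, adjusted p = 0.042).

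Tial1, at chr7:128439777-128461717 on the minus strand, had 69.6, 82.6 and 74.3 CPM in controls and 81.0, 84.5 and 67.1 CPM in treated libraries. These groups overlapped fully. The log2 difference was 0.04 ± 0.15 (SE; adjusted p = 0.83, edgeR), with a 95% interval of −0.30 to 0.38, so a change of 2-fold either way lies outside it on the TMM scale. By library size alone Tial1 was called lower (−1.02). Both genes turn on the gene length trend: with it removed, Tia1 (1.02) and Tial1 (0.94) were called higher. The ratio of Tia1 to Tial1 did not separate the groups, at 0.0965, 0.129 and 0.122 in controls and 0.0631, 0.0729 and 0.138 in treated libraries (exact permutation p = 0.4, adjusted p = 0.4), and its log2 difference of −0.42 was 0.08 with the length trend removed.

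**Figure D2:**
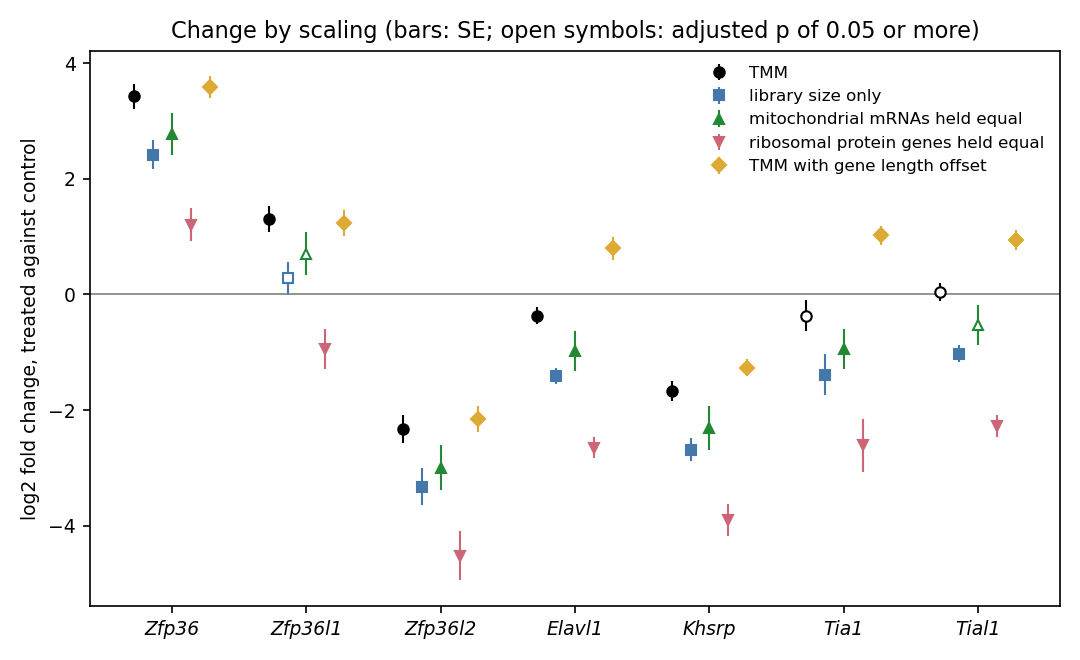
The log2 fold change of each member, treated against control, with its SE is plotted under 4 scalings and with the gene length trend removed; filled symbols passed an adjusted p of 0.05. Zfp36 is above 0 and Zfp36l2 and Khsrp are below 0 under all of them, Zfp36l1 goes below 0 (−0.94) with ribosomal protein genes held equal, and Elavl1, Tia1 and Tial1 change sign between settings.

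The scale moved all members together, because each scaling applies 1 factor per library to all genes. Places relative to the median could therefore hardly change between scalings. Relative to the median of all genes, Zfp36l2 lay at −2.21 to −2.08 and Khsrp at −1.52 to −1.46 on the log2 scale under the 6 scalings, while Elavl1 lay at −0.20 to −0.18, Tia1 at −0.20 to −0.16 and Tial1 at 0.17 to 0.25. The last 3 genes are the longest of the members, with 10363, 15750 and 6903 bases, against 2990 to 4319 bases for the others.

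**Figure D3:**
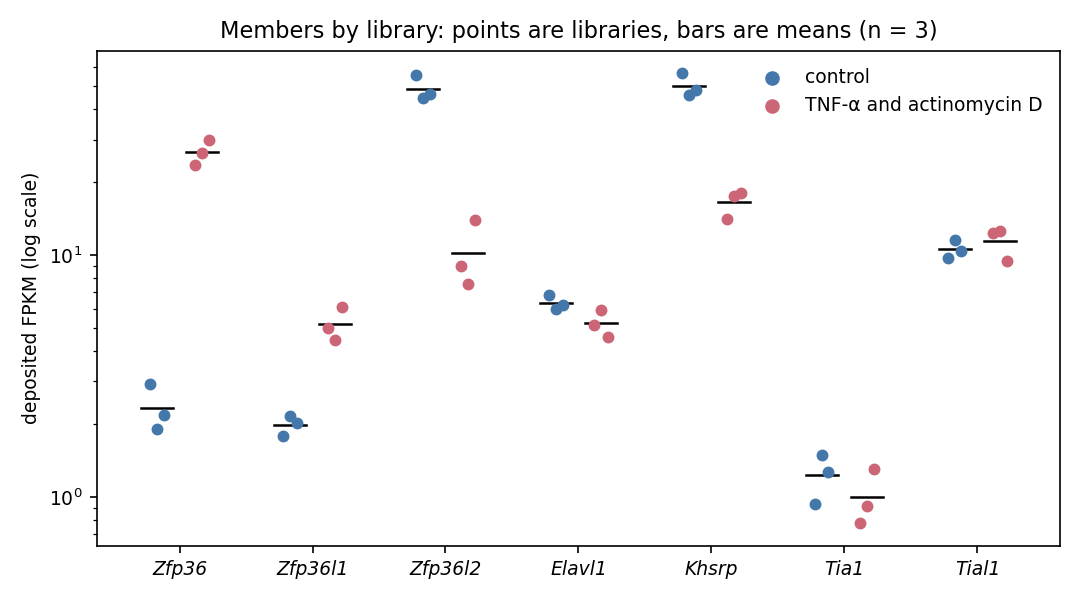
Deposited FPKM values (log axis) of the 7 members are plotted as 1 point per library with the group mean as a bar, n = 3 per group. Khsrp and Zfp36l2 are the highest in controls (means of 50.1 and 48.7) and Zfp36 is the highest in treated libraries (26.5).

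Levels of different genes were compared per length, on the authors' FPKM scale, so their order depends on the deposited lengths. Those of Tia1 (15750 bases) and Elavl1 (10363 bases) are the longest. By counts, Tia1 in controls (370, 595 and 523) lay above Zfp36 (254, 168 and 198) and Zfp36l1 (134, 163 and 159). In controls the order was Khsrp (50.1 ± 5.6, SD, n = 3), Zfp36l2 (48.7 ± 5.9), Tial1 (10.6 ± 0.95), Elavl1 (6.35 ± 0.45), Zfp36 (2.33 ± 0.52), Zfp36l1 (1.99 ± 0.19) and Tia1 (1.23 ± 0.28). The ranges of Khsrp and Zfp36l2 overlapped, with Khsrp above Zfp36l2 in 3 of 3 libraries, and so did those of Zfp36 and Zfp36l1, with Zfp36 above in 2 of 3. In treated libraries the order was Zfp36 (26.5 ± 3.2), Khsrp (16.6 ± 2.2), Tial1 (11.5 ± 1.7), Zfp36l2 (10.2 ± 3.3), Elavl1 (5.22 ± 0.67), Zfp36l1 (5.17 ± 0.84) and Tia1 (1.00 ± 0.27). The ranges of Tial1 and Zfp36l2 overlapped, as did those of Elavl1 and Zfp36l1. Zfp36 thus moved from the fifth place to the first, and its treated values of 23.4 to 29.8 FPKM lay above those of every other member.

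Overlapping genes could share reads where counting ignores strand, which the sources used here do not give. Gm44710, opposite to Zfp36, had 15 to 19 counts in controls and 0 to 4 in treated libraries, small beside those of Zfp36 and opposite in direction. Ccl25 overlaps Elavl1 by 204 bases on the opposite strand and had 222 to 309 counts per library. Gm26669, opposite to Zfp36l1, and Gm17949, opposite to Khsrp, had at most 2 and 6 counts. Gm44790 overlaps Tia1 by 6748 bases on the same strand and had 0 counts in every library, and AC132455.1, opposite to Zfp36l2 over 2192 bases, was not analysed here. The pseudogene Zfp36l1-ps had 0 counts in every library.

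The genes whose profile over the 6 libraries was nearest to each member were found among 9154 protein-coding genes by the root-mean-square distance of centred log2 CPM. For Zfp36 these were Phlda1 (distance 0.168, log2 fold change 3.18 ± 0.20), Vnn1 (0.184, 3.25 ± 0.26) and Lars2 (0.203, 3.23 ± 0.20). Zfp36l1 was nearest to Ccnl2 (0.082), P2rx3 (0.085) and Dars (0.085), and Zfp36l2 to Tdg (0.055), Entpd7 (0.074) and Pde4dip (0.079). For Khsrp they were Cep170b (0.036), Kdm8 (0.047) and Zfp503 (0.051), and for Elavl1 Tor1b (0.038), Wdr77 (0.046) and Sf3a3 (0.055). Tia1 lay nearest to Man2a1 (0.069), Fbxo30 (0.079) and Rfc1 (0.083), and Tial1 to Cdadc1 (0.065) and Tipin (0.079). With 2 groups this measure mostly follows the size of the change, and Zfp36 had no neighbour as close as those of the other members.

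Among the enzymes that ZFP36-type proteins recruit, falls clearly outnumbered rises on the TMM scale but only narrowly once the gene length trend was removed. Of 34 tested deadenylation and decapping genes, 21 fell and 7 rose (61.8% and 20.6%, against 40.2% and 34.6% of all genes), with a median log2 change of −0.67 against −0.18 for all genes. Cnot1, the scaffold of CCR4-NOT to which tristetraprolin binds, fell from 180 ± 12 to 7.54 ± 3.43 CPM (log2 −4.57 ± 0.31; adjusted p = 9.0e-07, edgeR). Among the catalytic deadenylase subunits, named here for their role after their values were seen, Cnot6l fell by 3.18 ± 0.41 on the log2 scale. Cnot8 (−0.73 ± 0.21) and Cnot6 (−0.56 ± 0.21) fell less, and Cnot7 went from 28.4 to 24.2 CPM and was not called (adjusted p = 0.27, edgeR). With the length trend removed, Cnot6 was not called (0.27) and Cnot7 was called higher (0.50). The largest rises were Lsm4 and Lsm5, subunits of the LSM ring, by 2.57 ± 0.25 and 2.56 ± 0.18, which with ribosomal protein genes held equal became 0.25 and 0.26 and were not called. With the gene length trend removed, 11 of these genes were higher and 12 lower, with a median of 0.13 against 0.08 for all genes.

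RNA exosome and Ski complex genes, which degrade mRNA from the 3′ end, had 10 of 16 tested genes lower and 3 higher (62.5% and 18.8%, against 40.2% and 34.6% of all genes; median −1.14). Exosc7 and Exosc1, core exosome subunits, fell by 3.20 ± 0.22 and 1.91 ± 0.18. The Ski helicase gene Skiv2l rose by 1.33 ± 0.15 and Exosc5 by 0.86 ± 0.23, but the scale with equal ribosomal protein genes gave −0.94 and −1.44, and Exosc5 was also below 0 by library size alone (−0.20). With the length trend removed the counts were 8 lower and 4 higher.

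Genes that control tristetraprolin after translation were called in both directions, at shares near those of all genes. MK2, from Mapkapk2, is the kinase downstream of p38 that phosphorylates tristetraprolin and lets 14-3-3 proteins bind it, while PP2A removes the phosphate. Mapkapk2 fell from 102 ± 17 to 36.8 ± 2.7 CPM (log2 −1.47 ± 0.17; adjusted p = 1.4e-05, edgeR), and Mapk14, for p38α, fell by 2.51 ± 0.25. The PP2A catalytic gene Ppp2ca fell as well, from 169 ± 11 to 24.1 ± 1.1 CPM. Mapk3, for ERK1, rose by 2.97 ± 0.18 and Akt1 by 1.46 ± 0.17, the latter negative (−0.79) with ribosomal protein genes held equal. In all, 8 of 23 genes of this kind rose and 11 fell (34.8% and 47.8%, against 34.6% and 40.2% of all genes; median −0.33), and with the length trend removed 7 were higher and 9 lower (median 0.0013).

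Other RNA-binding proteins of AU-rich or related elements had 16 of 28 tested genes lower and 8 higher (57.1% and 28.6%, against 40.2% and 34.6% of all genes; median −0.80). Rbm38, for an RNA-binding protein, fell by 3.47 ± 0.23 on the log2 scale. Cirbp, a cold-inducible RNA-binding protein, rose from 19.2 ± 1.8 to 177 ± 3.3 CPM, a log2 change of 3.20 ± 0.15 that is close to that of Zfp36. Ybx1, of the cold-shock domain family, rose 4.27-fold, with a log2 change below 0 (−0.18) with ribosomal protein genes held equal. Without the length trend 10 were lower and 11 higher. Of 23 stress granule genes, several of them shared with that list, 14 fell and 7 rose (60.9% and 30.4%, against 40.2% and 34.6% of all genes; median −1.04). Usp10, a deubiquitinase partner of G3BP, fell from 93.8 ± 12.9 to 4.37 ± 0.13 CPM and the kinase gene Eif2ak1 had a log2 change of −3.37 ± 0.24. With the length trend removed, 7 stress granule genes were lower and 7 higher.

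**Figure D4:**
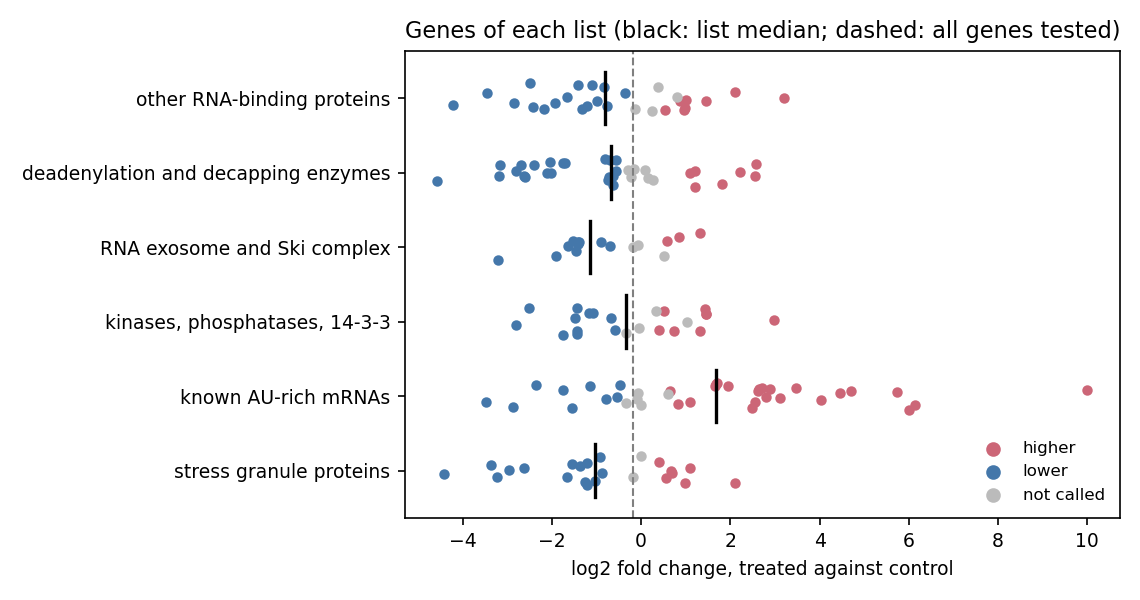
Points are the tested genes of each list by log2 fold change, treated against control, coloured by call, with black bars at list medians and a dashed line at the median of all genes (−0.18). Only the AU-rich mRNAs have a median (1.69) above the dashed line; Cxcl2, at the far right, had 3 counts in controls, so its fitted value depends on the prior count.

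Well-known AU-rich mRNAs, the kind of mRNA that these proteins bind, were called higher more often than lower on the TMM scale. With ribosomal protein genes held equal, 10 were higher and 19 lower. Most of the listed genes held 0 nonamers, among them Il6, Ccl2, Jun, Myc and Pim3, and Ier2 also held 0 copies of ATTTA. Of 37 tested genes 23 rose and 9 fell (62.2% and 24.3%, against 34.6% and 40.2% of all genes), with a median log2 change of 1.69. Some near 0 in controls entered the test through their treated counts, 9 of the 46 genes were not tested, and the list was drawn up with earlier results of these data known. Cxcl2, a neutrophil chemokine, was counted 3 times in all controls together and 1727 times in all treated libraries. Per TMM-scaled depth that is 1191-fold more (95% interval 407 to 5782, for counting error only). Fos went from 0.285 ± 0.085 to 20.3 ± 4.6 CPM, and is among the genes that entered the test through their treated counts, so its p-value is not given. Tnf, the classical target of tristetraprolin, rose from 4.64 ± 0.78 to 9.84 ± 1.52 CPM (log2 1.08 ± 0.25; adjusted p = 0.0023, edgeR). Tnf was not called by library size (0.06) or with the gene length trend removed (0.38), and Tnf was called lower with ribosomal protein genes held equal (−1.16). Notch1, which also holds 1 nonamer, fell from 33.1 ± 5.1 to 2.94 ± 0.89 CPM, and the kinase gene Pim3 fell by 2.88 ± 0.17.

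The nonamer by itself did not mark genes that rose. Of 930 tested genes with at least 1 nonamer, 183 were called higher and 528 lower (19.7% and 56.8%), with a median log2 change of −0.92, against 32.7% and 44.1% and a median of −0.35 over the 11393 genes with a 3′ untranslated region. These genes had longer 3′ untranslated regions, with a median of 2274.5 bases against 1055 for genes with none. With the gene length trend removed the medians were −0.15 with a nonamer and 0.08 over all. Genes with 2 or more nonamers had medians of −0.61 and, without the length trend, 0.09, and the 31 genes with 4 or more had −0.14 and 0.67. These are descriptions without a test.

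**Figure D5:**
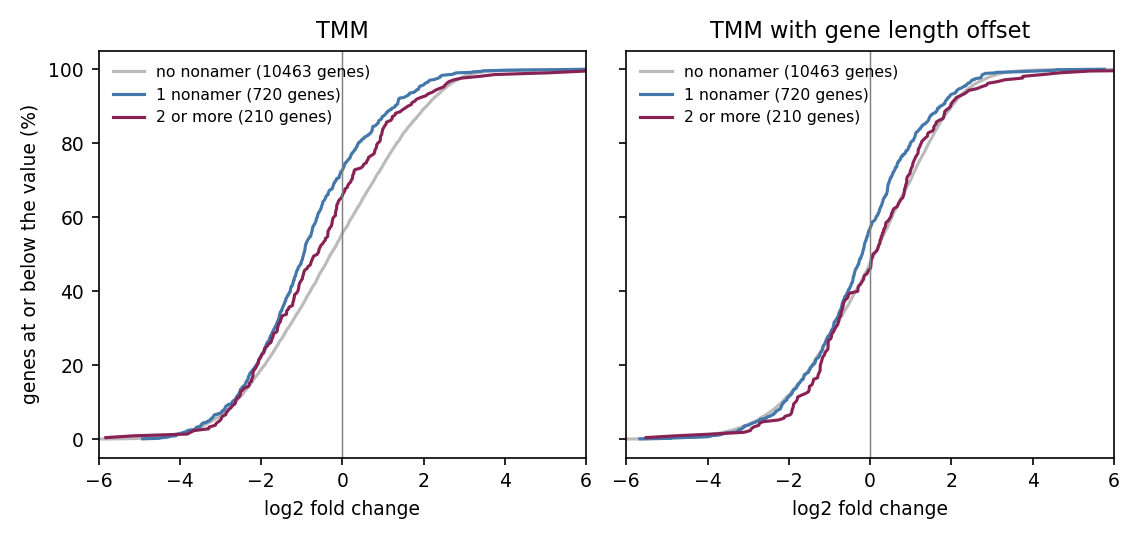
Cumulative percentage of genes by log2 fold change, treated against control, for genes with 0, 1 and 2 or more nonamers in the 3′ untranslated region, on the TMM scale (left) and with the gene length trend removed (right). On the left the curves of nonamer genes lie to the left of the others around 0, and on the right the curve for 2 or more (median 0.09) lies near that of genes with none (median 0.11).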

How the data were processed

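RNA libraries were prepared with a standard Illumina protocol, per the labels, and the submitters' processing notes list HISAT2 2.1.0, RSEM 1.3.1, DESeq2 1.24.0, GRCm38 and mm10 without saying what each was used for. The deposited table holds whole-number counts per gene, with gene lengths in bases (type other, per the file headers). The deposited FPKM values equal count over length times 1 constant per library, and the authors' FPKM is 0.635 to 0.719 times the value from the library total in controls and 1.22 to 1.64 times in treated libraries. Genes kept by filterByExpr (13290 of 24708 with a count) were fitted with edgeR 4.0.16 (TMM, robust glmQLFit, glmQLFTest, R 4.3.3). The fit was run on simulated data in which few genes changed, equally up and down. That setting meets the TMM assumption, so it cannot show how the fit behaves where most genes are called, as here. Standard errors are the size of the log2 change divided by the square root of F, and intervals use the t distribution. Exact permutation tests used scipy 1.17.1. Named genes were all 7 members, Tnf, Mapkapk2 and per list, up to 2 of the largest called rises and falls whose groups do not overlap and whose mean reaches 5 CPM, and for likeness the 3 nearest genes; a few genes that met these rules are not reported here. The members and lists were chosen with earlier results of these data known. Sites came from GENCODE M21 (54495 of 54532 identifiers matched) and promoters from RefSeq, which matched 6 of 7 members. Zfp36l2 was not matched there. Alternatives were 5 scalings, 2 filters, protein-coding genes only, DESeq2 1.42.0, limma 3.58.1 (voom, and log2(FPKM + 1) and log2(FPKM + 0.1)), a replicate block, a gene length offset (lowess, span 0.3), both together, and each library left out. Shares of the ZFP36-type genes without length division, their sum on other scales and ratios with the length offset were added after seeing the data.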

Additional observations from a re-analysis of the deposited data

How the results depend on the processing

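Zfp36, Zfp36l2 and Khsrp kept their direction and call in all 21 alternatives. Members called higher numbered 2 on the TMM scale, 1 by library size alone, with mitochondrial mRNAs or with ribosomal protein genes held equal, and 5 with the gene length offset, alone or with the replicate block; members called lower numbered 3, which became 5 by library size and 6 on the ribosomal protein scale. Leaving out 1 library gave 2 to 4 called lower and always 2 higher. The log2 fold change of Elavl1 (−0.37) lost its call with DESeq2 (−0.24), median-ratio factors (−0.24), upper-quartile factors (−0.20), at least 5 CPM in 3 libraries (−0.23), protein-coding genes only (−0.23), log2(FPKM + 1) (−0.25), log2(FPKM + 0.1) (−0.28) and the replicate block (−0.37, adjusted p = 0.0749), and reversed with the length offset (0.80; 0.79 with the block). It ran from −0.53 to −0.33 with 1 library left out, and lost its call without control replicate 1, 2 or 3 (adjusted p = 0.11, 0.053 and 0.10). Tia1 was called lower by library size (−1.39), with mitochondrial mRNAs (−0.94) and with ribosomal protein genes held equal (−2.61), higher with the length offset (1.02, also with the block), and ran from −0.70 to −0.23 without 1 library. Tial1 was −1.02 by library size, −0.53 with mitochondrial mRNAs and −2.27 with ribosomal protein genes held equal, −0.12 with no filter, 0.94 with the length offset (0.92 with the block), and −0.11 to 0.086 without 1 library, below 0 without control replicate 1 or 3 or treated replicate 1 or 2 (−0.05, −0.0085, −0.08 and −0.11). Zfp36l1 was 0.28 by library size, 0.71 with mitochondrial mRNAs and −0.94 with ribosomal protein genes held equal. The cause was not tested.

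Among other genes, ribosomal protein genes held equal reversed Akt1 (−0.79), Exosc5 (−1.44, and −0.20 by library size), Skiv2l (−0.94), Tnf (−1.16) and Ybx1 (−0.18). Called genes in all numbered 4604 higher and 5337 lower (46.3% higher), 2276 and 7924 by library size (22.3%), 2629 and 6425 with mitochondrial mRNAs (29.0%) and 364 and 10803 with ribosomal protein genes held equal (3.26%). On that last scale 10 AU-rich mRNAs were higher and 19 lower, 16 of 16 exosome and Ski genes and 22 stress granule genes were lower with 0 higher, kinases and partners were 1 and 21, deadenylation genes had 0 higher and other binding proteins 1. By library size, higher calls numbered 2 (other binding proteins), 4 (deadenylation), 0 (exosome), 4 (kinases) and 1 (stress granules), with 14 AU-rich mRNAs lower, and with mitochondrial mRNAs 3, 4, 0, 3 and 1. With block and length offset together, deadenylation genes were 11 higher and 13 lower and 8 stress granule genes were lower. Stress granule genes called higher were 4 without control replicate 3. The difference in the share of Zfp36l1, 8.56 points, was 7.55 without length division, and the shares ran from 56.9 to 61.3 points for Zfp36, 8.10 to 8.94 for Zfp36l1 and −69.9 to −65.8 for Zfp36l2 without 1 library. Ratios between members kept their direction with 2 counts added and with each library left out. Deposited FPKM is count over length times 1 constant per library, so ratios from it are the same by construction. The block likewise leaves their differences unchanged. With the length offset, added after seeing the data, the log2 difference of Zfp36 to Elavl1 was 2.79 (2.81 with the block), of Elavl1 to Khsrp 2.07 (2.05), of Zfp36l1 to Zfp36l2 3.39 (3.43) and of Tia1 to Tial1 0.081 (0.11), the last reversed.

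Deviations of same-numbered libraries correlated at 0.22, −0.14 and 0.03, within the range of −0.38 to 0.38 for pairs with different numbers. With 3 libraries per group this check cannot settle whether the replicate numbers pair the libraries. With the replicate block 4450 genes were higher and 5411 lower, the ratios were the same by construction, and Elavl1 alone among members lost its call. Depth limits treated Tia1 (132 to 276 counts per library), Zfp36l1 (134 to 245) and control Zfp36 (168 to 254).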
